A study of Mus musculus with 21 samples.

Results

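The HIF pathway genes described here are the 10 genes Hif1a, Epas1, Arnt, Hif3a, Egln1, Egln2, Egln3, Vhl, Vegfa and Car9, taken as every non-control probe of the arrays annotated to one of these symbols. They were represented by 20 of 55681 probes, and all 10 genes were among the 21372 genes measured well enough to be tested. The set was selected on the Hif1a log2 ratio, which was higher after doxycycline withdrawal than with vehicle, so withdrawal against vehicle is described without a test, and so is Hif1a wherever compound 6 enters a comparison, because those comparisons use the same vehicle or withdrawn arrays.

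The samples were organoids grown in Matrigel from crypts of mouse small intestine. All carried a Tet-O transgene for a myc-tagged human beta-catenin without its N terminus (ΔN89), a form that escapes degradation and drives Wnt signalling, and the transactivator M2-rtTA, expressed from the endogenous ROSA26 promoter. On 4 arrays (letters D to G) doxycycline, which induces the transgene, had been withdrawn for 24 h. On 3 arrays cultures with doxycycline had received 2 µM compound 2 for 24 h (letters A to C), on 4 arrays 2 µM compound 6 (D to G) and on 3 arrays 2 µM compound 9 (A to C). Vehicle with doxycycline filled the other 7 arrays (A to G). The compounds are analogues built on a 3,4,5-trisubstituted pyridine and target the Mediator kinases CDK8 and CDK19, per the labels. Every culture had the transgene, and what doxycycline does by itself cannot be told apart from what the transgene does. Each array carried sample RNA in Cy3 and Universal Mouse Reference RNA in Cy5. Arrays A to C and D to G were scanned on different days, so every change below is taken against vehicle arrays of matching letters.

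Hypoxia-inducible factors are dimers of an oxygen-regulated alpha subunit (encoded by Hif1a, Epas1 or Hif3a) and the stable partner encoded by Arnt. With oxygen present, the prolyl hydroxylases Egln1, Egln2 and Egln3 mark the alpha subunit for the ubiquitin ligase that contains Vhl, and the protein is destroyed; when oxygen is short the dimer binds a short core motif near genes of glycolysis, angiogenesis and pH control, such as Vegfa and Car9. Most of this control acts on the protein, which arrays do not measure. In the intestinal epithelium the factor encoded by Epas1 is known for its control of iron uptake genes, and in human colon cancer cells CDK8 is known to be needed for full induction of many HIF targets.

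To place the members' transcripts beside the motif the factors bind, RefSeq promoter sequences (GRCm38.p6) were searched in the 250 bases before each annotated start. The table held 11 such windows for 9 of the 10 members; Epas1 was not among them. The core was searched as ACGTG or GCGTG on both strands, and 38.6% of all 32851 mouse windows of this length hold at least 1 match. The windows of 4 members are shown, with matches to the core in capitals: Hif1a, whose transcript chose the set, Egln2, the hydroxylase that passed the test with compound 6, and Egln3 and Car9, textbook targets of the pathway. Hif1a lies at chr12:73907617-73907866 (+ strand), Egln2 at chr7:27166803-27167052 (- strand), Egln3 at chr12:54203875-54204124 (- strand) and Car9 at chr4:43506776-43507025 (+ strand).
Hif1a: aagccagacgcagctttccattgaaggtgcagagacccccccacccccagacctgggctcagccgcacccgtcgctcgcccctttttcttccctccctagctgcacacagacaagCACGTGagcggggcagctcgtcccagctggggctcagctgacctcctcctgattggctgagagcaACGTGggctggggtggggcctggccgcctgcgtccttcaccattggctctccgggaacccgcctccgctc
Egln2: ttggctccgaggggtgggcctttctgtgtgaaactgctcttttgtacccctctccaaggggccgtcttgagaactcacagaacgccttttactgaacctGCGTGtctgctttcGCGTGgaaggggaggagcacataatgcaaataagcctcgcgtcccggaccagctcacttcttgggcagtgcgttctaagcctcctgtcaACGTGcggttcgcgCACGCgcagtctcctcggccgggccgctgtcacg
Egln3: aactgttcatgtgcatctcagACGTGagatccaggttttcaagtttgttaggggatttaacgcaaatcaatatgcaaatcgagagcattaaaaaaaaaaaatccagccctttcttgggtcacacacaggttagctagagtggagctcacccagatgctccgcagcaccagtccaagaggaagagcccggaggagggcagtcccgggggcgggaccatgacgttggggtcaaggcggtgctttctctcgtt
Car9: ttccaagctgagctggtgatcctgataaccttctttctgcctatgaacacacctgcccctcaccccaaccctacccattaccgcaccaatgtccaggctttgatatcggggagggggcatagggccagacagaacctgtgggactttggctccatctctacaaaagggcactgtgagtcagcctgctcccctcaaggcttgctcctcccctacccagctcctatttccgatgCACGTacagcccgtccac
The Hif1a window held 3 matches, of which 2 overlap because the palindrome CACGTG reads as the core on either strand. CACGTG occurs in 6.021% of all windows. Egln2 held 4 matches in this window and 1 in its other window, Hif3a and Egln1 held 2 each, Arnt, Egln3 and Car9 1 each, and Vegfa 0 and 2 in its windows. The other Egln2 window and the Vegfa window with 2 matches lie downstream of another annotated start of the same gene. They can therefore hold transcribed sequence. Vhl held no match in its window. The Wnt factor motif ATCAAAG, searched on both strands, was found in the Car9 window and in no other member's, against 3.205% of all windows. These matches describe letters in a window and not sites in use.

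The oxygen-regulated subunit Hif1a gave the widest separation of groups on arrays D to G. The set was selected on its rise there after withdrawal, which favours a wide separation. The values are log2 ratios of sample over reference on its brighter probe (A_51_P387608, chromosome 12, 75047269 to 75047329, mm9). After withdrawal Hif1a stood at 0.75, 0.72, 1.08 and 0.96 on arrays D to G, against -0.60, -0.38, 0.15 and -0.04 on the vehicle arrays D to G. Every withdrawn array was above every vehicle array. Compound 6 gave 0.50, 0.30, 0.69 and 0.71 on arrays D to G, also above every vehicle array. These lay below every withdrawn array, but only narrowly at the closest, with compound 6 G at 0.71 and withdrawn E at 0.72. The fitted differences were 1.09 ± 0.20 (SE) for withdrawal over vehicle, a 2.13-fold difference, and 0.76 ± 0.20 for compound 6 over vehicle. Between compound 6 and withdrawal the difference was -0.33 ± 0.20, with a 95% interval from -0.75 to 0.09. Within letters, withdrawn minus vehicle was 1.35, 1.10, 0.93 and 1.00 for D to G, and compound 6 minus vehicle was 1.09, 0.68, 0.54 and 0.74. Within the slides that held both groups, withdrawal lay 1.19 and 1.23 above vehicle and compound 6 lay 0.72, 0.88 and 0.73 above it.

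On arrays A to C the Hif1a values overlapped between groups. Compound 2 gave 1.63, 0.62 and 1.78, compound 9 gave 0.73, 0.86 and 1.02, and vehicle gave 0.77, 0.76 and 0.97. Letters A and C were high with compound 2 and letter B was not. The compound 2 change was 0.51 ± 0.23 (95% interval 0.03 to 1.00, limma adjusted p = 0.235). Blocking by letter gave an adjusted p of 0.0458, and without compound 2 B the change was 0.88 (adjusted p = 0.00974), so the call depended on the model and on 1 array. Within slides compound 2 lay 0.36 and 0.81 above vehicle. Compound 9 gave a change of 0.04 ± 0.23 (interval -0.45 to 0.52, adjusted p = 1). The difference between compounds 9 and 2 was -0.48 ± 0.23 (interval -0.96 to 0.01, adjusted p = 0.298). Without compound 2 B it was -0.84 (adjusted p = 0.0135).

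The level of Hif1a also differed between the vehicle arrays of the 2 scan days. Vehicles D to G averaged -0.21 ± 0.33 (SD, n = 4) and vehicles A to C 0.83 ± 0.12 (SD, n = 3), without overlap. The withdrawn arrays D to G, at 0.72 to 1.08, lay near vehicles A to C, at 0.76 to 0.97. Letters and scan day cannot be told apart. Vegfa, Vhl and Car9 also did not overlap between the vehicle sets, which makes 4 of 10 members; 49.4% of all genes did not overlap there either, so the members are not set apart by it. In Car9 the vehicles D to G averaged 3.12 ± 0.12 and the vehicles A to C 1.94 ± 0.64.

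**Figure D1:**
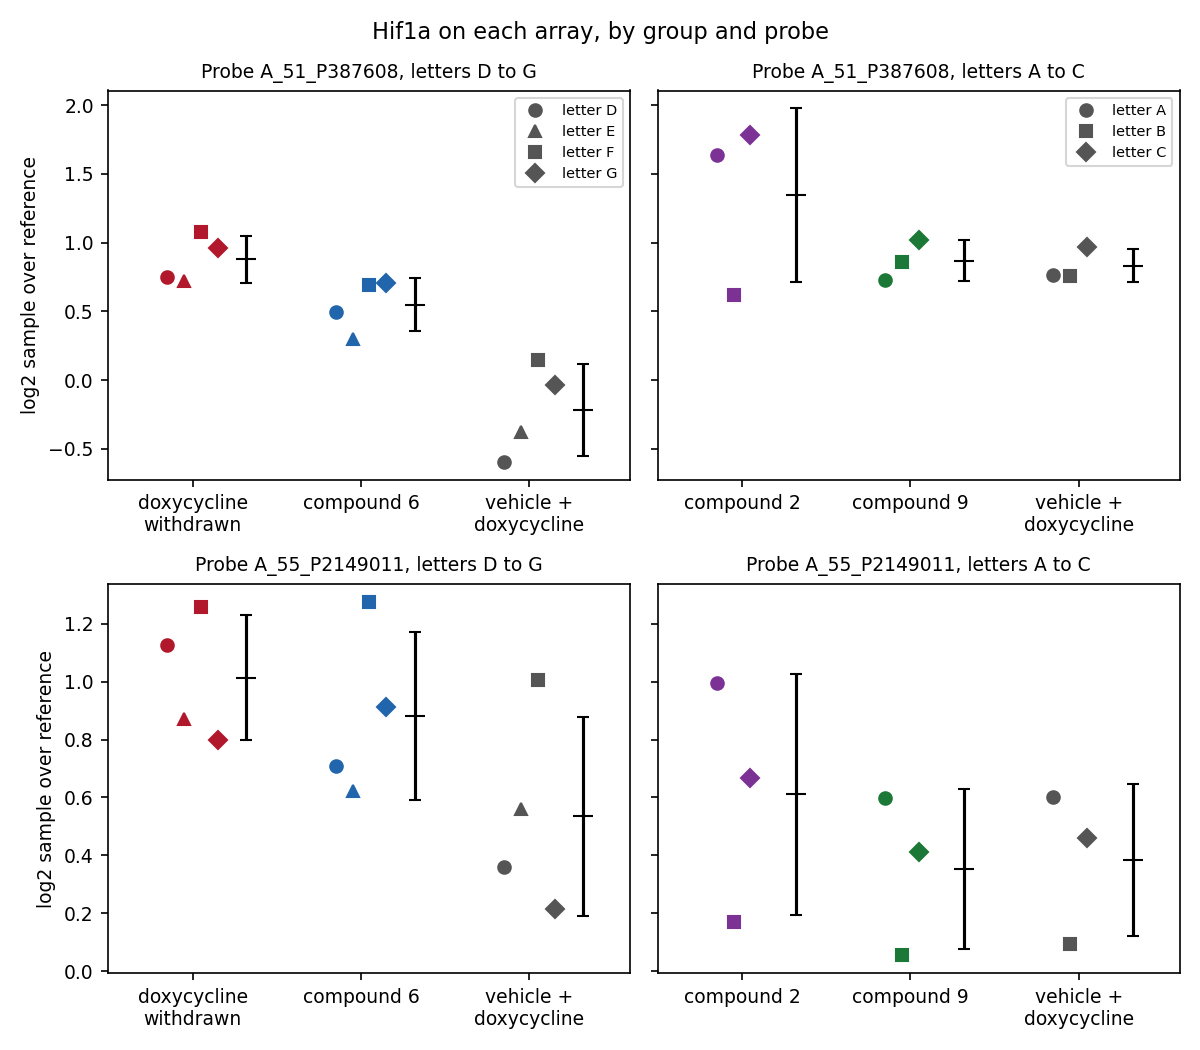
Hif1a on each array, as log2 sample over reference on the vertical axis, by group, with 1 row of panels for each of its 2 probes; marker shapes are letters, and the bars are the mean and SD of a group. On the brighter probe the withdrawn arrays (0.72 to 1.08) and the compound 6 arrays (0.30 to 0.71) lie above the vehicle arrays D to G (-0.60 to 0.15), while on the other probe the groups overlap.

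The other Hif1a probe (A_55_P2149011, chromosome 12, 75033965 to 75034024, mm9) was dimmer and gave smaller differences. Withdrawal lay 0.48 above vehicle on it, compound 6 0.35 and compound 2 0.23, and compound 9 lay at -0.03. The withdrawn arrays stood at 0.80 to 1.26, the compound 6 arrays at 0.62 to 1.28 and the vehicle arrays D to G at 0.22 to 1.00. The vehicle array F, the highest of its group on both probes, overlapped the other groups there. With the mean of both probes withdrawal lay 0.79 above vehicle and compound 6 0.56. In the sample channel both probes were well above background on all 21 arrays. In the reference channel the dimmer probe was not, on compound 6 F and G, withdrawn D and F, and vehicle D. Its ratios on those arrays, and the mean of both probes, rest in part on a weak reference signal.

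The gene patterns most like Hif1a over the 21 arrays were, by Pearson's r of log2 ratios centred on the vehicle arrays of each set, Acad11 (0.93), Bag3 (0.90), Fbxo9 (0.90), Tjp1 (0.90) and Arih2 (0.89). Acad11 encodes an acyl-CoA dehydrogenase, Bag3 a co-chaperone of Hsp70 and Tjp1 the tight junction scaffold ZO-1. The arrays share the reference RNA and the vehicles used for centring, and r is given as a description. Among the members, Vegfa (0.43) and Egln1 (0.41) had the highest r with Hif1a, and Egln2 the lowest (-0.57).

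The other 2 alpha subunits and the partner Arnt gave smaller differences from vehicle than Hif1a, the gene selected on, after withdrawal and with compound 6. Epas1, which encodes the alpha subunit of HIF-2, stood at 4.70, 4.70, 5.12 and 4.80 on the withdrawn arrays and 4.28, 4.41, 4.67 and 4.48 on the compound 6 arrays, against 4.33, 4.36, 5.08 and 4.59 on the vehicle arrays D to G. Every compound 6 array was below every withdrawn array, and vehicle overlapped both. The compound 6 change against vehicle was -0.13 ± 0.14 (adjusted p = 0.548), and withdrawal lay 0.24 ± 0.14 above vehicle. Compound 6 minus withdrawal was -0.37 ± 0.14 (interval -0.67 to -0.07, adjusted p = 0.0881). Its adjusted p was 0.000498 in the fit blocked by letter, and 0.0239 without every letter F array. The other Epas1 probes gave -0.50 and -0.06 for this difference.

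Arnt, the stable partner, stood at -0.84, -0.65, -0.85 and -0.63 with compound 6 and at -0.54, -0.56, -0.63 and -0.45 after withdrawal, against -0.50, -0.61, -0.61 and -0.58 with vehicle. The compound 6 arrays lay below all others, arrays E and G only narrowly. Compound 6 minus withdrawal was -0.20 ± 0.07 (interval -0.34 to -0.06, adjusted p = 0.0491). The call was lost without compound 6 D (adjusted p = 0.145) or F (0.127) and without withdrawn D (0.0879), E (0.0809) or G (0.149). Compound 6 minus vehicle was -0.17 ± 0.07 (adjusted p = 0.0705, 0.0373 when blocked by letter and 0.0393 without compound 6 G). Within slides it was -0.28, -0.03 and -0.27. The other Arnt probe above background gave 0.01 against vehicle and -0.11 against withdrawal.

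Hif3a, an alpha subunit known mainly as an inhibitor of the others, varied more between letters than between groups. Withdrawn arrays stood at 3.15, 2.95, 1.58 and 2.89 and compound 6 arrays at 2.73, 2.50, 0.96 and 2.24, against 2.78, 2.48, 1.47 and 2.30 on vehicle arrays D to G. Array F was the lowest of each of these groups. Compound 6 minus withdrawal was -0.54 ± 0.43 (adjusted p = 0.439, and 0.00278 when blocked by letter). Within letters this difference ran from -0.65 to -0.42, and it was negative in 4 of 4 letters. Compound 6 minus vehicle was -0.15 ± 0.43 (interval -1.05 to 0.75), compound 2 minus vehicle -0.10 ± 0.50 and compound 9 minus vehicle 0.06 ± 0.50. The 2 dimmer probes gave -0.30 and 0.21 for compound 6 minus withdrawal and did not share a sign.

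Of the enzymes that mark the alpha subunits for destruction, Egln2 was lower with compound 6. It stood at 0.69, 0.60, 0.53 and 0.70 on the compound 6 arrays, against 0.98, 1.01, 0.81 and 0.92 on the vehicle arrays D to G. The groups did not overlap, and Egln2 was lower in 4 of 4 letters. The change was -0.30 ± 0.08 (interval -0.46 to -0.14, adjusted p = 0.0082), and within slides it was -0.20, -0.35 and -0.39. It was 1 of 9 members tested that passed in this comparison, which called 24.8% of all genes tested, so the members were not called more often than genes at large. Egln2 gave -0.16 on its other probe. The withdrawn arrays stood at 0.79, 0.94, 0.69 and 0.85 and overlapped the vehicle arrays, with a difference of -0.11 ± 0.08. Compound 6 minus withdrawal was -0.18 ± 0.08 (adjusted p = 0.118, and 0.0167 when blocked by letter).

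With compound 2, Egln2 stood at 0.72, 0.83 and 0.74, and with compound 9 at 0.75, 1.01 and 0.78, against 0.95, 1.07 and 0.83 with vehicle A to C. All compound 2 arrays lay below all vehicle arrays, array B narrowly, and the change was -0.19 ± 0.09 (adjusted p = 0.267). Compound 9 gave -0.10 ± 0.09 (adjusted p = 1). The compound 6 change minus the compound 2 change was -0.11 ± 0.12 (interval -0.35 to 0.13, adjusted p = 0.761). Against compound 9 the difference of changes was -0.19 (interval -0.44 to 0.05, adjusted p = 0.358).

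The other hydroxylases and Vhl did not pass in any comparison with a compound. Egln1, the main oxygen sensor of most tissues, ranged from 0.26 to 0.59 with compound 6 and from 0.20 to 0.71 with vehicle D to G, a change of -0.03 ± 0.13. Egln3, itself an induced target, ranged from 1.57 to 1.85 with compound 6 and from 1.10 to 1.98 with vehicle, a change of 0.30 ± 0.29 (adjusted p = 0.487) and 0.41 on its other probe. Vhl, which recognises the hydroxylated subunit, gave -0.14 ± 0.09 with compound 6, -0.18 ± 0.10 with compound 2 (adjusted p = 0.385) and -0.10 ± 0.10 with compound 9. On arrays A to C all Vhl values with compound 2 (-0.62, -0.57 and -0.49) and compound 9 (-0.46, -0.49 and -0.50) lay below those with vehicle (-0.35, -0.44 and -0.35), without a call.

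The target genes Vegfa and Car9 did not pass with any compound. Vegfa, the main angiogenic growth factor, stood at -0.60, -0.80, -0.59 and -0.68 after withdrawal and at -0.82, -0.74, -0.68 and -1.01 with compound 6, against -1.04, -1.08, -0.68 and -0.93 with vehicle. All groups overlapped. Withdrawal lay 0.27 ± 0.11 above vehicle, and compound 6 gave 0.12 ± 0.11 (adjusted p = 0.44). The other Vegfa probe gave -0.05 for withdrawal and -0.29 for compound 6, so the probes did not share a sign.

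Car9, the membrane carbonic anhydrase often used as a hypoxia marker, was nearly level across D to G. The withdrawn arrays stood at 3.25, 3.27, 3.26 and 3.28 and the compound 6 arrays at 3.15, 3.05, 3.28 and 2.95, against 3.11, 2.99, 3.29 and 3.09 with vehicle. Withdrawal lay 0.15 ± 0.23 above vehicle and compound 6 at -0.01 ± 0.23 (interval -0.50 to 0.48). On arrays A to C it stood at 2.34, 1.61 and 2.20 with compound 2 and at 2.38, 1.24 and 2.08 with compound 9, against 2.35, 1.20 and 2.26 with vehicle. Letter B was low in all 3 groups.

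Across the members, none passed with compound 2 (0 of 10, 2 at an unadjusted p under 0.05), in a comparison that called 5.32% of all genes tested. None passed with compound 9 (0 of 10, 0 at an unadjusted p under 0.05), where 0% of all genes did. The median change of the 10 members was 0.02 with compound 2 and -0.02 with compound 9, beside medians over all genes of 0.003 and -0.009. With compound 6 it was -0.08, or -0.13 for the 9 members without Hif1a, beside -0.03 over all genes. After withdrawal it was 0.17, or 0.15 for the 9 members without Hif1a, beside -0.01 over all genes. In that comparison 20.7% of all genes passed, from which nothing is read for the members. Compound 6 against withdrawal called 1 of 9 members (Arnt) and 15% of all genes. The median difference of the 9 members without Hif1a was -0.18, beside 0.02 over all genes.

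Between compounds, 3 pairs were compared, each adjusted over all genes. Compound 9 against compound 2 called 0 of 10 members and 4.8% of all genes. The difference of the changes with compounds 6 and 2 called 0 of 9 members and 0.566% of all genes, and that with compounds 6 and 9 called 0 of 9 and 6.5% of all genes. None of the members tested had an unadjusted p under 0.05 in these 3 pairs. Apart from Hif1a, the differences ranged from -0.15 to 0.17 for compound 9 minus compound 2, from -0.18 to 0.10 for compound 6 minus compound 2 and from -0.21 to 0.22 for compound 6 minus compound 9. Their 95% intervals ran as far as -1.59 and 1.33, both for Hif3a (SE 0.66), the most variable member. For Hif1a the difference of changes was 0.25 ± 0.30 for compound 6 minus compound 2 and 0.73 ± 0.30 for compound 6 minus compound 9 (interval 0.09 to 1.37), given without a test.

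**Figure D2:**
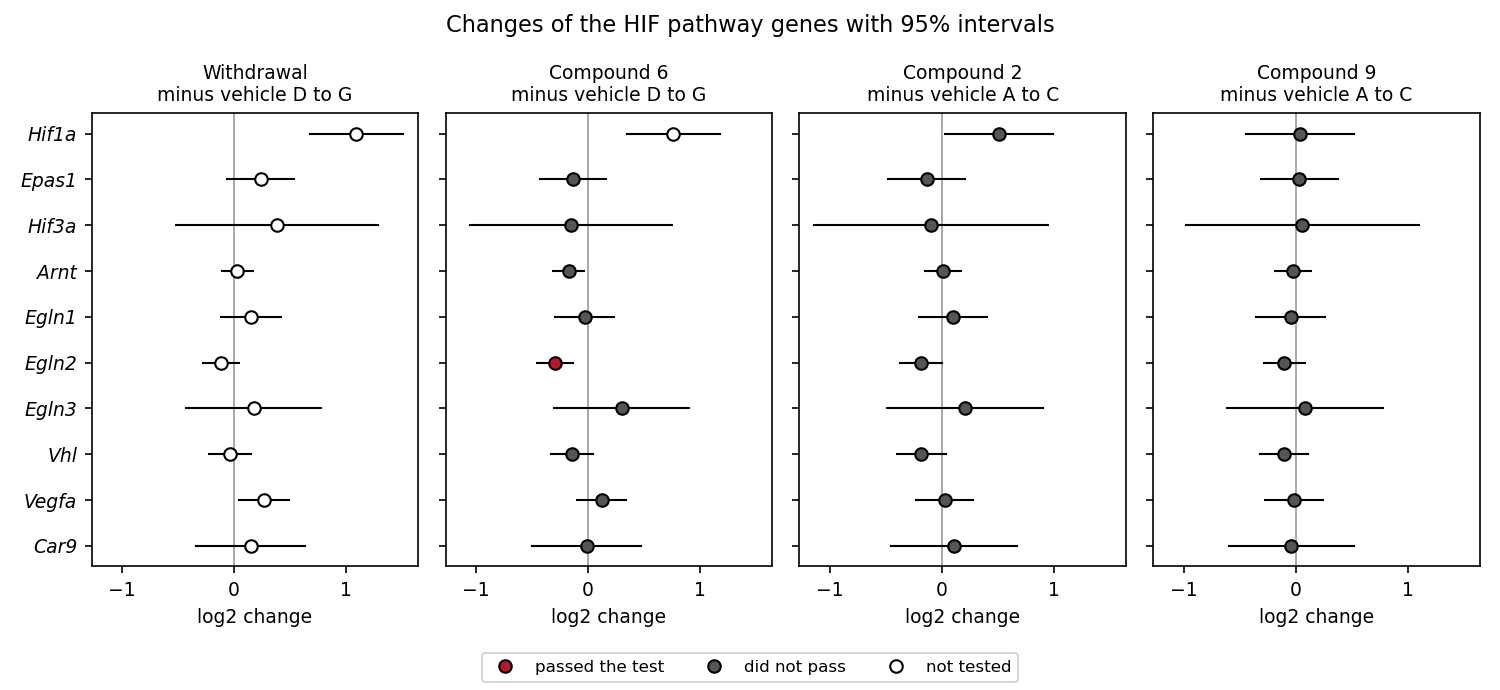
Log2 changes of the 10 members against vehicle arrays of matching letters (horizontal axis), with 95% intervals as lines, for withdrawal and for compounds 6, 2 and 9. Open points were not tested, the red point (Egln2 with compound 6, -0.30) passed the test and the grey points did not. Hif1a, selected for its rise after withdrawal, lies farthest right after withdrawal (1.09) and with compound 6 (0.76).

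Much of the members' variation followed the letter of the sample. Over all genes, deviations from group means correlated at a median of 0.527 for same-letter pairs of arrays and -0.179 for others. The letter's share of variance was not computed over all genes, so the shares below are not read as particular to the members. Within arrays A to C the letter held a median of 62.1% of a member's variance and the group 8.13%, and the letter's share was the greater one in 8 of 10 members. It held 93.5% for Car9, 88.0% for Hif3a and 78.9% for Egln3, all lowest at letter B. Egln3 stood at 1.17, 0.61 and 0.34 on compound 2 B, compound 9 B and vehicle B, and at 1.29 to 1.98 on the arrays A and C of these groups. Within arrays D to G the letter held a median of 32.8% and the group 35.5%. Letters outnumber groups on these arrays, so the shares are not like for like. There the group held 70.8% for Egln2 and 82.5% for Hif1a, a share that the selection of Hif1a on these arrays favoured. The letter held 85.4% for Hif3a and 58.8% for Epas1. Letter F was the lowest for Hif3a and the highest for Epas1 and Egln3.

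**Figure D3:**
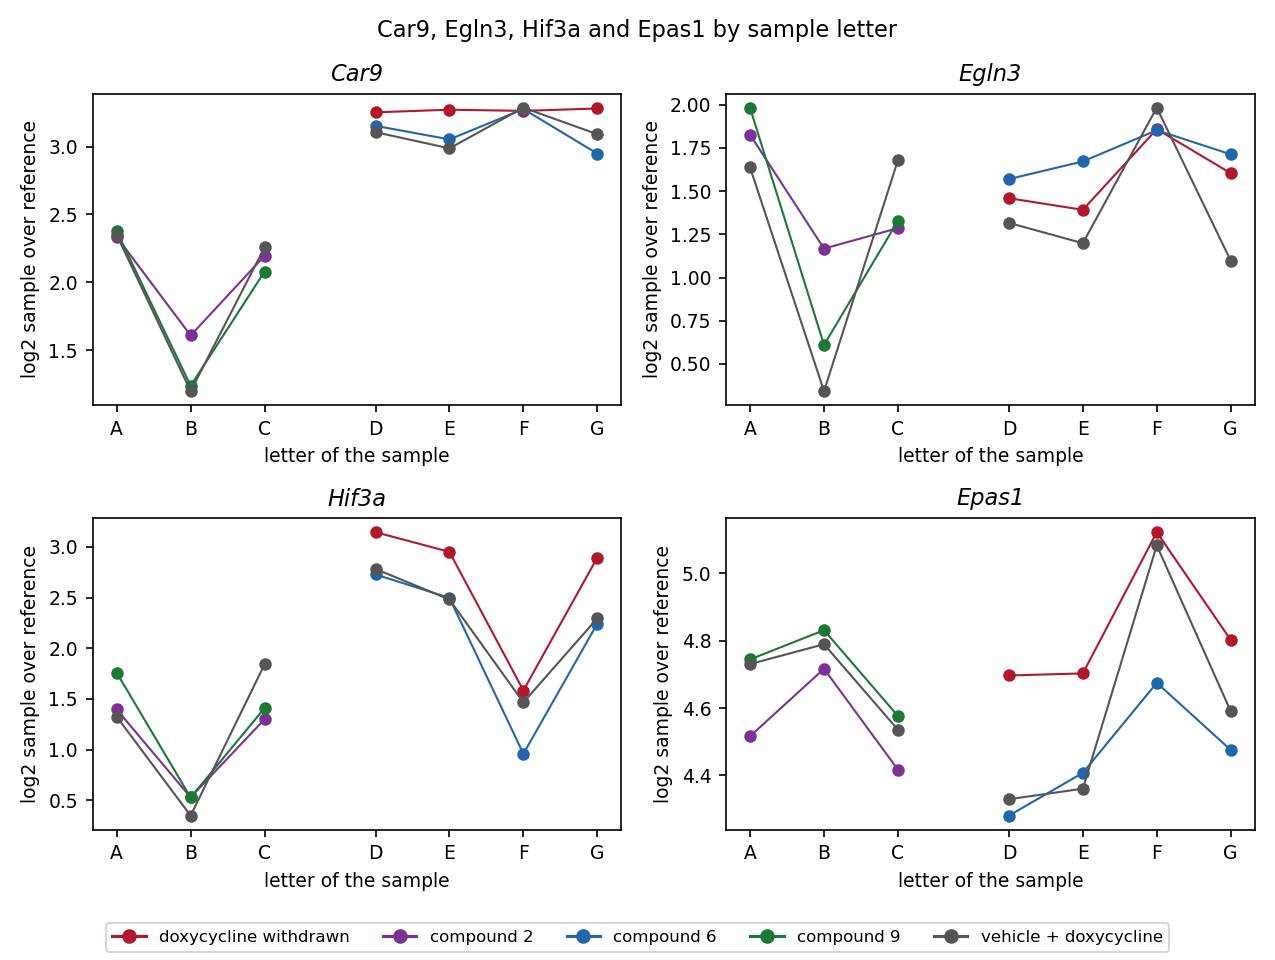
Car9, Egln3, Hif3a and Epas1 on each array as log2 sample over reference (vertical axis), by sample letter (horizontal axis), with 1 line per group. The lines of different groups share a shape, with Car9 at 1.20 to 1.61 at letter B and Hif3a at 0.96 to 1.58 at letter F.

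Among regulators of the pathway that are not members, those that passed with compound 6 were all lower. Of 14 regulators and cofactors measured, 6 fell, 0 rose and 8 did not pass (3 fell without vehicle D or without vehicle E), with a median change of -0.24, beside -0.03 over all genes, of which 13.4% fell. The 6 were Tceb2 (-0.46 ± 0.10, adjusted p = 0.0032), Ep300 (-0.38 ± 0.07, adjusted p = 0.000732), Rbx1 (-0.36 ± 0.10, adjusted p = 0.0152), Hif1an (-0.32 ± 0.10, adjusted p = 0.0296), Cul2 (-0.24 ± 0.06, adjusted p = 0.00527) and Tceb1 (-0.24 ± 0.08, adjusted p = 0.0266); Cul2 and Tceb1 are named after their values were seen. Tceb1 and Tceb2 encode the elongins that join Vhl to Cul2 and Rbx1, the scaffold and ring subunits of its ubiquitin ligase. Ep300 is the acetyltransferase coactivator of the factors, and Hif1an the asparaginyl hydroxylase that keeps it from binding. Leaving out 1 array ended the call for Rbx1 (compound 6 F, adjusted p = 0.0628, and vehicle D or E, 0.0618 and 0.0544). It ended that of Hif1an (compound 6 E, 0.112, and vehicle D, E or G, 0.057, 0.0615 and 0.0629) and of Tceb1 (compound 6 G, 0.0808, and vehicle D, E or G, 0.0698, 0.0879 and 0.052). Of 13 alternative settings, the calls of Hif1an and Tceb1 were lost in 3 each (adjusted p up to 0.0761 and 0.0702). Those of Tceb2, Ep300, Rbx1 and Cul2 were lost in 1 each (up to 0.066, 0.0584, 0.112 and 0.0783). The ligase subunits stood below vehicle after withdrawal too, by 0.34 for Tceb2, 0.42 for Rbx1, 0.19 for Cul2 and 0.26 for Tceb1, described without a test; both differences share the vehicle arrays.

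Ep300 and Cited2 were lower with compound 6 than after withdrawal, the only 2 of 14 regulators called there, in a comparison that called 15% of all genes, so the regulators were not called more often than genes at large. Ep300 averaged 0.37 ± 0.09 with compound 6 and 0.92 ± 0.08 after withdrawal (SD, n = 4 each), a difference of -0.56 ± 0.07 (adjusted p = 3.7e-05). Cited2, which competes with the factors for Ep300, gave -0.46 ± 0.10 (adjusted p = 0.0057). The change of Ep300 with compound 6 was also 0.45 lower than that with compound 9 (adjusted p = 0.0192), as was that of Cul2, by 0.32 (adjusted p = 0.0384), which makes 2 of 14 beside 6.5% of all genes. That of Cul2 was lost in 11 of 14 fits that left out 1 array, with adjusted p up to 0.105 (without compound 9 A). Of 13 alternative settings, the Ep300 difference from compound 9 was lost in 4 (difference as small as -0.13, adjusted p up to 0.352). That of Cul2 was lost in 8 (adjusted p up to 0.175). Blocking by letter gave 5 lower and 1 higher against withdrawal, where it called 7290 of all 21372 genes either way. It gave 4 lower against compound 9, where it called 4659. None of the 14 regulators passed with compound 2 or compound 9. Blocking by letter gave 1 higher and 2 lower with compound 2 (3710 of all 21372 genes called) and 0 with compound 9 (1 gene).

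Target genes of glucose metabolism moved both ways with compound 6. Of 12 such targets, 2 rose and 2 fell, and 8 did not pass, with a median of -0.22, beside -0.03 over all genes, of which 11.4% rose and 13.4% fell. Blocking by letter gave 2 higher and 7 lower, in a fit that called 8822 of all 21372 genes either way. Pfkfb4 (0.73 ± 0.11, adjusted p = 0.000161) and Pfkfb3 (0.68 ± 0.21, adjusted p = 0.0243), bifunctional enzymes that set the level of the glycolytic activator fructose 2,6-bisphosphate, rose. The liver-type phosphofructokinase Pfkl (-0.53 ± 0.17, adjusted p = 0.0266) and lactate dehydrogenase Ldha (-0.47 ± 0.15, adjusted p = 0.0251) fell. Their other probes gave 0.23 for Pfkfb4, 0.17 for Pfkfb3 and -0.35 and -0.25 for Ldha. Pfkfb4 passed without any 1 array. The others did not: the adjusted p came to 0.1 for Pfkfb3, 0.0998 for Pfkl and 0.0953 for Ldha without compound 6 F, and Pfkl and Ldha were also lost without compound 6 G (0.0612 and 0.0579). Without vehicle D it was 0.0525 for Pfkfb3, 0.0734 for Pfkl and 0.0851 for Ldha, without vehicle E 0.0657, 0.0653 and 0.0699 for the same genes, and without vehicle G 0.0721 for Pfkfb3 and 0.058 for Pfkl. Of 13 alternative settings, the call of Pfkfb4 was lost in 1 (change down to 0.31, adjusted p up to 0.307). That of Pfkfb3 was lost in 2 (change down to 0.09, adjusted p up to 0.872). Those of Pfkl and Ldha were lost in 4 each (adjusted p up to 0.607 and 0.435). The Pfkfb4 change was also 0.86 higher than that with compound 9 (adjusted p = 0.00729). The lactate transporter Slc16a3 was lower with compound 6 than after withdrawal, at -0.70 ± 0.18 (adjusted p = 0.011). It was 1 of 12 targets called there, beside 15% of all genes. Blocking by letter gave 2 higher and 5 lower, beside 7290 of all 21372 genes called either way.

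The remaining targets were as mixed. Of 21 tested of 22 on the array, 2 rose and 3 fell with compound 6, with a median of -0.08, beside -0.03 over all genes, of which 24.8% were called. Blocking by letter gave 3 higher and 10 lower, beside 8822 of all 21372 genes called either way. Ankrd37, an ankyrin repeat gene known as a direct target, fell by 1.26 ± 0.25 on the log2 scale (adjusted p = 0.00138), the mTORC1 inhibitor Ddit4 fell by 1.23 ± 0.22 (adjusted p = 0.000558) and the carbonic anhydrase Car12 fell by 0.88 ± 0.23 (adjusted p = 0.00953). The collagen prolyl hydroxylase subunit P4ha2 rose by 0.87 ± 0.22 (adjusted p = 0.00751) and the vasoconstrictor precursor Edn1, named after its value was seen, by 0.74 ± 0.15 (adjusted p = 0.00178). These 5 passed without any 1 array. The Ddit4 change was 1.17 lower (adjusted p = 0.0437) and the Edn1 change 0.80 higher (adjusted p = 0.0478) than with compound 9. Both of these differences were lost in most fits that left out 1 array, 10 of 14 for Ddit4 (adjusted p up to 0.105) and 11 of 14 for Edn1 (up to 0.128), in each case highest without compound 9 A.

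Compound 6 and withdrawal differed in 4 of these 21 targets, beside 15% of all genes. Blocking by letter gave 3 higher and 10 lower with compound 6, beside 7290 of all 21372 genes called either way. Edn1 averaged 0.39 ± 0.30 with compound 6 and -0.63 ± 0.08 after withdrawal, a difference of 1.02 ± 0.15 (adjusted p = 0.000193), and the transferrin receptor Tfrc was 0.59 ± 0.09 higher (adjusted p = 0.000315). The lipase inhibitor Angptl4 was lower with compound 6, at -1.01 ± 0.23 (adjusted p = 0.00661), as was the mitophagy receptor Bnip3, at -0.89 ± 0.21 (adjusted p = 0.00748). With compounds 2 and 9 none of the 12 glycolytic or 21 other targets passed. Blocking by letter gave, with compound 2, 2 higher among the 12 and 4 higher and 2 lower among the 21, and none with compound 9. That fit called 3710 of all 21372 genes with compound 2.

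Of the iron genes, 4 of 6 were tested, and the iron importer Slc11a2 rose with compound 6 (0.30 ± 0.08, adjusted p = 0.0149), though its other probe gave -0.74 and the mean of its probes turned the change to -0.22. Without vehicle D its adjusted p was 0.0543. The iron exporter Slc40a1 averaged 5.57 ± 0.19 with compound 6 and 4.77 ± 0.15 after withdrawal, a difference of 0.80 ± 0.25 (adjusted p = 0.0363). That call was lost in 7 of 8 fits that left out 1 array, all but that without withdrawn F, with adjusted p from 0.051 (compound 6 D) to 0.0824 (withdrawn D). Blocking by letter gave 2 higher and 1 lower with compound 6 against vehicle and 1 each way against withdrawal. That fit called 8822 and 7290 of all 21372 genes in these comparisons, and 3710 with compound 2. None of the 4 passed with compound 2 (1 higher when blocked by letter) or with compound 9.

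**Figure D4:**
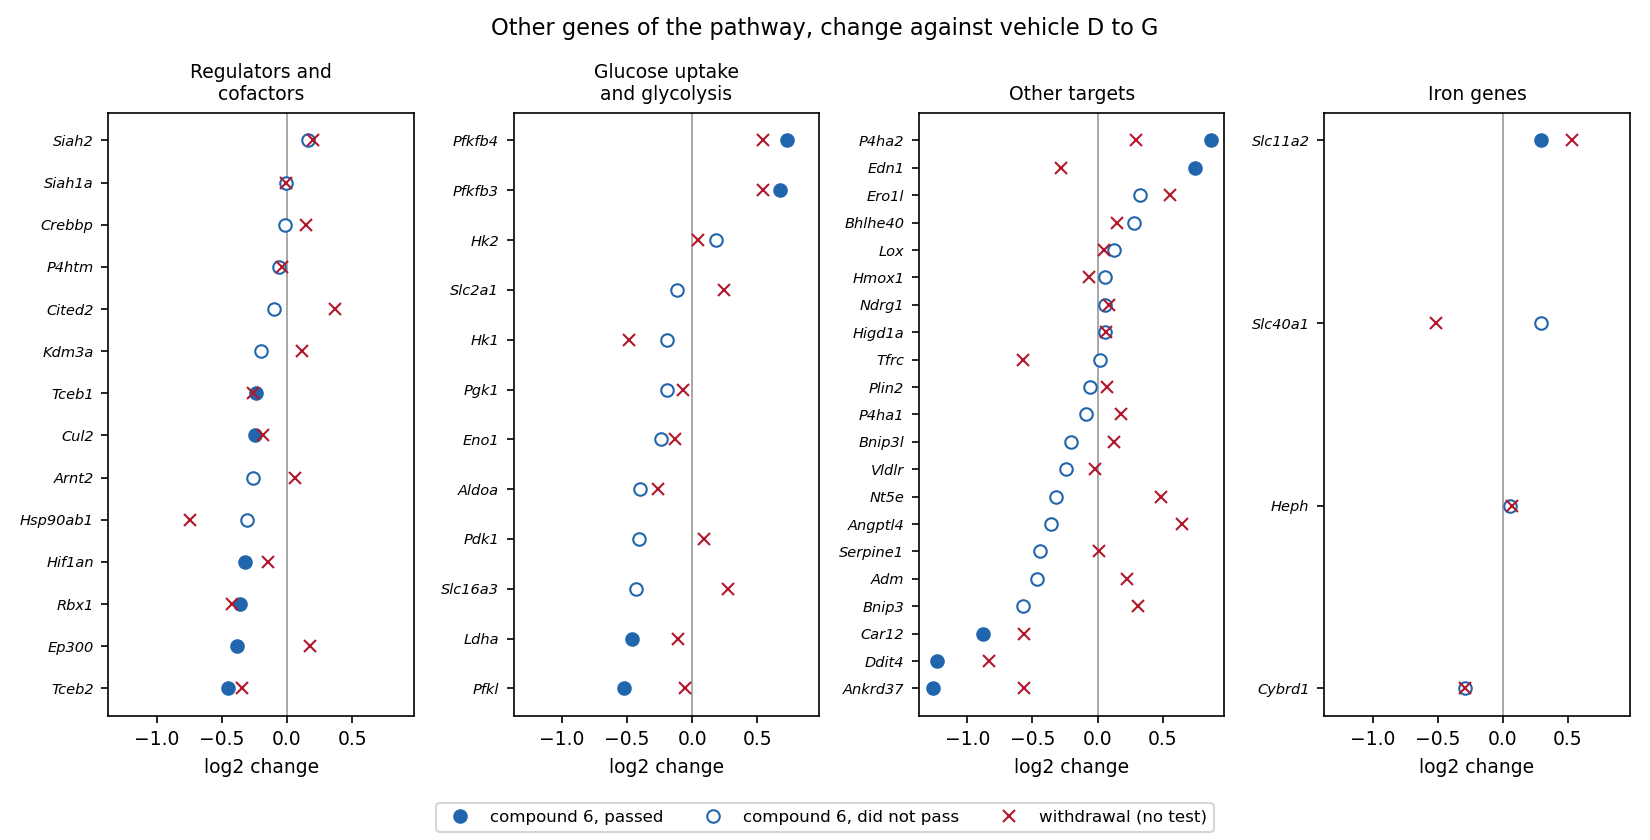
Log2 change against vehicle D to G (horizontal axis) of the other genes of the pathway, in 4 lists; circles are compound 6 (filled where the test was passed) and crosses are withdrawal, shown without a test. The 6 regulators that passed lie between -0.46 and -0.24, while the targets that passed run from -1.26 (Ankrd37) to 0.87 (P4ha2).

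Markers of epithelium and enterocytes were well above background on every array (8 of 8 and 7 of 7). Markers of other cell types were detected too. All 8 leukocyte markers, among them Ptprc, Cd68, Lyz2 and Csf1r, were well above background on all 21 arrays, as were the fibroblast markers Col1a1, Col1a2, Col3a1, Acta2, Dcn and Vim and the endothelial markers Pecam1, Kdr and Plvap. Cdh5 and Emcn (endothelium) and Pdgfra (fibroblasts) were not well above background on any array. With compound 6, 11.4% of all genes rose and 13.4% fell. Beside that, 5 of 8 leukocyte markers (median 0.21) and 4 of 7 tested fibroblast markers (median 0.23) rose. Of 8 epithelial markers 2 rose and 1 fell, and of 7 enterocyte markers 2 rose (median 0.16). Of 4 endothelial markers 1 rose and 1 fell. The summed Cy3 signal of the leukocyte markers ranged from 16379 to 24869 with compound 6 and from 10180 to 18586 with vehicle D to G. That of the fibroblast markers ranged from 3045 to 3770 and from 2541 to 3017 in the same groups. The 8 epithelial markers summed to far more, from 230593 to 239013 with compound 6 and from 215350 to 267103 with vehicle D to G. Compound 6 against withdrawal called 15% of all genes. There 2 of 8 leukocyte (median 0.14), 2 of 7 fibroblast (median 0.20) and 1 of 8 epithelial markers were higher with compound 6. Of the other types, 1 of 4 endothelial and 1 of 7 enterocyte markers were lower. After withdrawal the summed signal ranged from 15593 to 20727 for the leukocyte markers and from 2951 to 3217 for the fibroblast markers. The differences of the changes with compounds 6 and 9 called 6.5% of all genes. There 2 of 8 leukocyte (median 0.24), 1 of 7 fibroblast (median 0.24) and 2 of 7 enterocyte markers (median 0.20) were higher with compound 6. No epithelial marker was called. Their part in the results was not tested. In bulk RNA, fewer cells of a type and less RNA per cell cannot be told apart. The sources do not say whether the samples of a group came from separate cultures or animals, so p-values measure only the spread between these samples.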

How the data were processed

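Scans were quantified by the authors in Agilent Feature Extraction 10.7.3.1, per the file headers, with probe positions on mm9. The deposited scanner files hold each spot's intensity in both channels and a log10 ratio of reference over sample, which per the file headers comes from the same software. The deposited series matrix holds log2 ratios; set against the scanner values (r at least 0.991, slope 1.00 to 1.02) they run as sample over reference, with column medians from -0.007 to 0.089. For its normalisation the tool was not given in the sources used here.

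Of 62976 spots, 3671 control spots were left out; 157 non-uniform spot values were set missing and 0 were saturated. In the sample channel 42.6% to 51.9% of spots stood well above background; the number of arrays limits the precision. With limma 3.58.1 in R 4.3.3 (package data.table, version 1.17.8), intensities were corrected by normexp (offset 50) and loess-normalised within arrays to log2 sample over reference, with no dye swaps. Probes were kept where the Cy3 signal stood well above background on 3 or more arrays (19 of the 20 member probes), and the brightest stood for its gene. One model held 5 groups and the letter set; moderated tests were two-sided, with Benjamini-Hochberg adjustment over 21372 genes and a threshold of 0.05. The scripts were tested on simulated data.

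The letters were checked for pairing on deviations from group means: the 21 same-letter pairs correlated at 0.208 to 0.749, others at a median of -0.179, so the letter was also fitted as a block. No arrays were identical (highest r 0.996). Sets coincide with 2 scan days and 2 scanners, over 5 slides. Alternatives covered background correction, the Agilent ratio, Cy3 alone, the matrix, filters, probe choice, set, slide and letter terms, and single arrays left out. All members are named; of other genes, those passing in a list and compound comparison, at most 4 by size. Members and lists were chosen with earlier results of these data known. Figures used Python 3.11.15 and matplotlib 3.10.9.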

Additional observations from a re-analysis of the deposited data

Results flagged for a closer look

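Hif3a stood apart on 1 withdrawn array. Withdrawn F gave 1.583 on the log2 scale of sample over reference, against 2.89 to 3.15 on the withdrawn arrays D, E and G, and its gap to the nearest of them was 0.840 of the group's range, above Dixon's critical value for 4 samples. Array F was also the lowest for Hif3a with compound 6 (0.96) and with vehicle (1.47). Of 30 groups of 4 arrays checked, this was 1, and chance alone marks about 1 in 20 such groups. Without every letter F array, compound 6 minus withdrawal for Hif3a was -0.51 (adjusted p = 0.337).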

How the results depend on the processing

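Egln2 kept its lower level with compound 6 and passed in all alternatives run, with adjusted p from 0.00053 to 0.0334. The count of members passing with compound 6 (1) became 3 without the set term and 2 with the letter as a replicate block; with 1 array left out it ran from 1 to 2. With compound 2 (0) it became 1 without the set term and 1 with the replicate block, in both cases Hif1a, and ran from 0 to 1 with 1 array left out. Compound 9 gave 0 in all alternatives run, and compound 9 against compound 2 gave 0 to 1 with 1 array left out. Between compounds 6 and 2, and between 6 and 9, the count of 0 became 4 without the set term. Compound 6 against withdrawal (1) gave 2 with the Agilent ratio, 2 with Cy3 alone, 2 with the series matrix and 4 with the replicate block. It gave 0 with the mean of probes, without a filter on dim probes, without the set term, with only the groups compared and with slide as a block, and 0 to 1 with 1 array left out. Without the set term 22 of 80 differences of members and 2 of 29 of named list genes changed sign. In 5 of these the difference passed in one of the fits or, for Hif1a, exceeded 2 SE: Car9 (1.06) and Vhl (-0.34) between compounds 6 and 2, Hif1a (-0.32) and Pfkfb4 (-0.11) between compounds 6 and 9, and Slc11a2 with compound 6 (-0.32), which also lay at -0.22 with the mean of its probes. The others include Hif1a (-0.80), Hif3a (1.03) and Vegfa (-0.31) between compounds 6 and 2 and Hif3a (0.87), Vegfa (-0.27) and Egln1 (-0.24) between compounds 6 and 9. That setting compares arrays of different scan days. Over all genes the replicate block raised the calls to 3710 of 21372 for compound 2 and 8822 for compound 6. It raised them to 7290 for compound 6 against withdrawal and to 4659 between compounds 6 and 9. With 1 array left out, the regulators lower with compound 6 ran from 3 to 7 of 14, and with compound 2 at most 1 regulator and 2 other targets passed. Apart from these settings the causes were not tested.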
